A study of Drosophila melanogaster with 5 samples.

Results

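The microRNAs described here carry the late numbers of the fly catalogue, from 2000 upwards. The members were the rows of the deposited count table whose name starts with mir- and a number of 2000 or more, leaving out mir-2498. This gave 183 of the 479 mature arms in the table, from 106 of its 259 hairpins. Both arms were counted for 77 of these hairpins and a single arm for 29.

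Gel-selected small RNAs of 18 to 29 nt were read in 2 tissues of Drosophila melanogaster males. There were 3 libraries of the dissected intestine and 2 of the carcass left behind after dissection, which still holds muscle, nervous system, fat body and testis. All groups were adult w1118 males, a white-eyed laboratory stock, of 2 to 3 days of age and on standard food, with no treatment and no transgene named in the labels. The design compared the tissues, to ask which microRNAs differ between them.

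microRNAs are cut from hairpin precursors by the nucleases Drosha and Dicer, and a mature arm then guides an Argonaute protein to matching messenger RNAs. Numbers are given in order of submission, so high numbers belong to hairpins found late, mostly by deep sequencing. Such hairpins are known for low levels, for narrow expression and, in flies, for recently arisen genes of the male germline. Some lie inside exons or introns of other genes, where fragments of the host transcript can be read as a microRNA.

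Depth was unequal, with 547937, 368352 and 329424 microRNA reads in the intestine libraries against 1654625 and 3038873 in the carcass libraries. A count of 3 reads equals 5.48, 8.14 and 9.11 CPM in the intestine libraries, against 1.81 and 0.987 CPM in the carcass libraries, where CPM is the read count scaled to 1000000 microRNA reads. The tissues carried their labels: the summed level of 8 neuron and eye arms (mir-124, mir-210, mir-263b, mir-1000) was 206 to 273 CPM in the intestine and 20324 to 29828 CPM in the carcass. The 38 arms of the testis hairpins, from mir-959 to mir-964, mir-972 to mir-979, mir-982 to mir-984 and mir-303, summed to 35.3 to 49.3 CPM in the intestine and 3257 to 3376 CPM in the carcass, and 13 of them had no intestine read. The 4 muscle arms of mir-1 and mir-133 summed to 27823 to 41637 CPM in the intestine and 143062 to 153071 CPM in the carcass, with none at 0. The 12 arms of 6 hairpins taken as intestine markers, some of them (mir-958, mir-956 and mir-314) known from these libraries, summed to 357680 to 375580 CPM in the intestine and 38468 to 40019.9 CPM in the carcass. Most of the intestine sum came from those known hairpins, so the size of this contrast is no independent check of the labels. With libraries pooled by tissue, the main arms of mir-263a (listed as bft), mir-275 and mir-305 had 35268, 8125 and 18037 CPM in the intestine. Their carcass levels were 16072, 6145 and 12994 CPM. In whole tissues, fewer cells of a type and less RNA per cell cannot be told apart.

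The late-numbered arms were a very small part of the microRNA pool in both tissues, and most were barely detected. They held 333, 196 and 150 reads in the intestine libraries and 1085 and 1980 in the carcass libraries. This was 608, 532 and 455 CPM in the intestine, against 656 and 652 in the carcass, so each intestine library lay below both carcass libraries. The mean share was 532 ± 76.2 CPM over the 3 intestine libraries and 654 ± 2.96 CPM over the 2 carcass libraries (± SD), that is 0.0532% and 0.0654% of the pool. The Wilson 95% interval of a single library was widest for intestine 2, at 0.0463 to 0.0612%. That of intestine 1, 0.0546 to 0.0677%, overlapped those of carcass 1 (0.0618 to 0.0696%) and carcass 2 (0.0623 to 0.0681%). Those of intestine 2 and 3 did not. Without molecular identifiers, intervals of this kind reflect counting error alone. The order of the tissues depended on the denominator: with miR-958-3p, the most abundant intestine microRNA, left out of the totals, the mean was 659 CPM in the intestine, against 654 CPM in the carcass. Mid-numbered arms, from 900 to below 2000 and so including miR-958, made up 29.5 ± 0.62% of the pool in the intestine, against 3.26 ± 0.18% in the carcass.

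Of the 183 arms, 62 had no read in any library and 53 had 1 to 3 reads over all 5 libraries. Reads were found in both tissues for 63 arms, only in the intestine for 5 and only in the carcass for 53. The intestine-only arms had at most 2 reads in all, so none of them was measured. There were 12 arms with a read in each of the 5 libraries, 24 arms with at least 20 reads in sum and 6 with at least 100. For comparison, 4 of the 128 mid-numbered arms and 7 of the 166 remaining arms had no read anywhere. The median pooled level of the late-numbered arms was 0 CPM in the intestine and 0.213 CPM in the carcass, below the level of 3 reads in either pool (2.41 and 0.639 CPM). The median over the mid-numbered arms was 2.41 CPM in the intestine and 45.8 CPM in the carcass, and over the remaining arms 108 and 248 CPM.

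**Figure D1:**
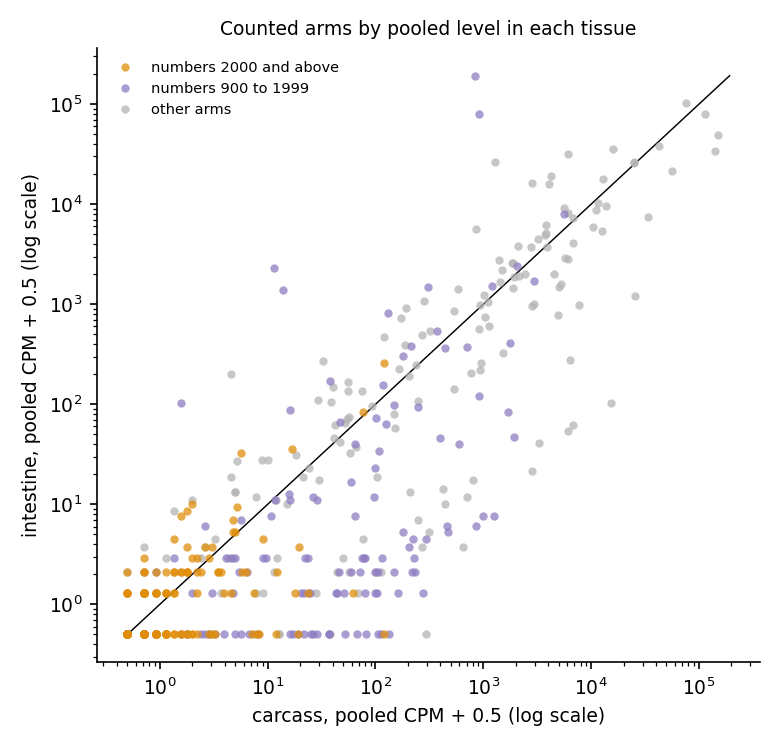
Each point is a mature arm, placed by its pooled carcass level (x) and pooled intestine level (y) in CPM plus 0.5 on log axes, and the line marks equal levels. Late-numbered arms (orange) crowd into the lower left corner, where 4 of 183 reach 10 CPM in the intestine and 11 reach it in the carcass.

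More arms were detected in the deeper carcass libraries. At least 1 read was found for 46, 36 and 33 of the 183 arms in the intestine libraries, and for 94 and 95 in the carcass libraries, although carcass 2 was the deeper of that pair. When each library was reduced, by the hypergeometric formula, to the 329424 reads of the shallowest, the expected numbers were 34.9, 33.3 and 33.0 for the intestine, against 48.4 and 40.1 for the carcass. The carcass thus kept more detected arms at equal depth, but the gap was much smaller than in the raw numbers. Depth here counts all microRNA reads, including miR-958-3p at 192564 CPM in the pooled intestine and 830 CPM in the pooled carcass. Detection with miR-958-3p left out of the depth was not computed. With all libraries of a tissue pooled, 68 arms were detected in the intestine, against an expected 77.7 in the carcass at the same number of reads. The mid-numbered arms differed more at equal depth, with 64.0 to 70.8 detected of 128 in the intestine and 108 to 110 in the carcass. A requirement of 3 reads left 12, 6 and 7 late-numbered arms in the intestine libraries and 48 and 54 in the carcass libraries.

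**Figure D2:**
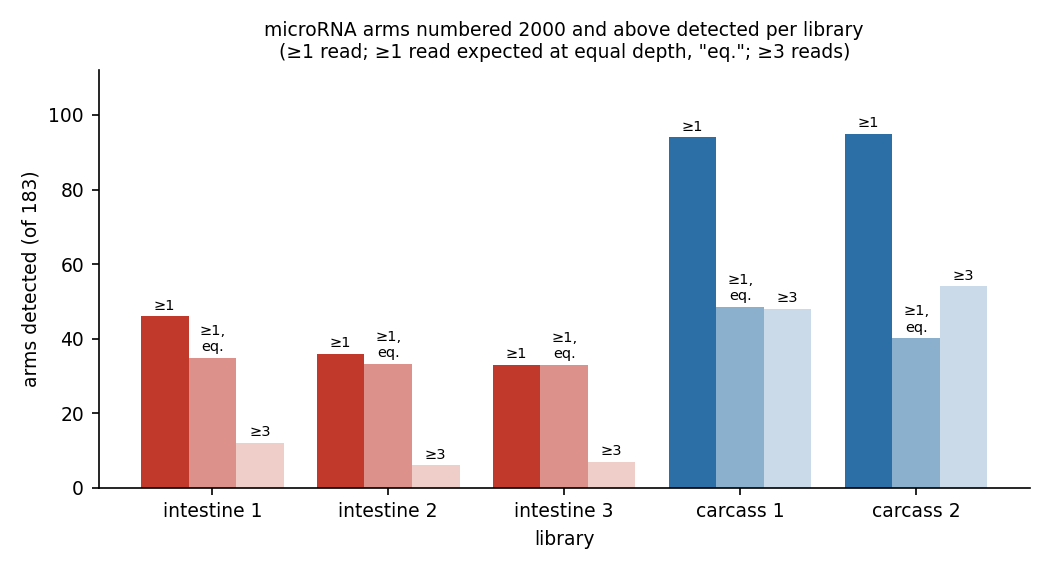
Bars give, for each library, how many of the 183 late-numbered arms had at least 1 read, how many are expected at the depth of the shallowest library (eq.) and how many had at least 3 reads. At equal depth the intestine bars stand at 34.9, 33.3 and 33.0 arms, against 48.4 and 40.1 for the carcass libraries, whose raw bars reach 94 and 95.

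For 45 of the 53 arms found only in the carcass, the carcass level predicted under 3 reads in the pooled intestine libraries, so their absence there was not detectable as a difference. The other 8 were expected at 3 reads or more. They were both arms of mir-2494, 3 of the 4 arms of the mir-4966 copies, miR-4945-5p, miR-9381-5p and miR-4961-5p, a set chosen after the values were seen. The last 2 were expected at only 3.45 and 3.18 intestine reads.

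Few arms carried most of the reads. miR-2535b-3p alone held 50.5, 49.0 and 40.7% of the late-numbered reads in the intestine libraries, and 18.6% in carcass 1. In carcass 2 the leading arm was miR-2494-3p, with 18.9%. A low-count filter (edgeR filterByExpr by tissue, minimum count 10) kept 7 of the 183 arms, or 3.83%, against 64.8% of the mid-numbered arms and 78.3% of the remaining arms. These 7 arms held 72.7 to 78.6% of the late-numbered reads in the intestine libraries and 60.6 to 67.1% in the carcass libraries. Of the 7 tested arms, 4 were called higher and 3 lower in the intestine (edgeR quasi-likelihood test, Benjamini-Hochberg adjusted p under 0.05 over 222 arms). The same test called 34.7% of all tested arms higher and 48.2% lower, and 82.9% in either direction, so the share called among late-numbered arms lay near the background. The arms called lower had next to no intestine reads and passed the filter only through the carcass, where they had to differ. Likewise, miR-4919-3p and miR-11182-3p passed it only through the intestine, where they are high, and their adjusted p-values carry that selection. miR-2535b-3p and miR-4951-5p passed it through either tissue. The median log2 fold change was 0.70 over the 7 arms and -0.50 over all 222, and when factors from the trimmed mean of M-values (TMM) gave way to plain library totals these medians were 0.19 and -1.02. With library totals 3 of the 7 arms were called higher and 3 lower, and over all arms 50 were higher and 126 lower, against 77 and 107 with TMM.

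**Figure D3:**
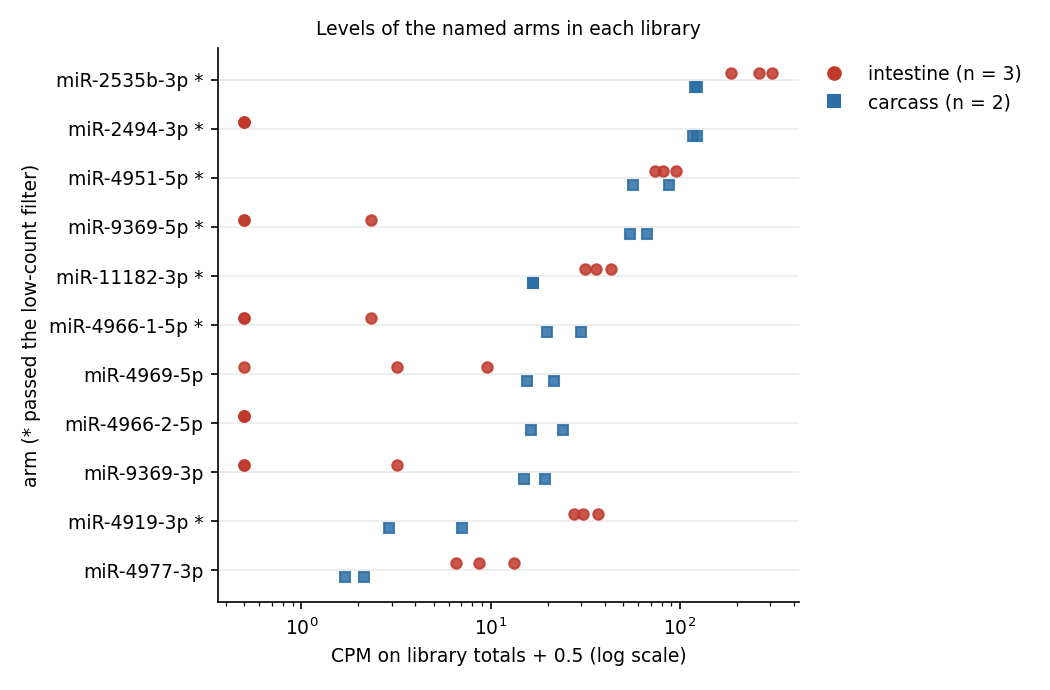
Points give the level of each named arm in each library, in CPM on library totals plus 0.5 on a log axis (circles, intestine; squares, carcass; points at 0.5 are libraries without a read). miR-2535b-3p, miR-11182-3p, miR-4919-3p and miR-4977-3p lie to the right in the intestine, miR-4951-5p overlaps between tissues, and the other 6 arms lie to the right in the carcass.

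The arms higher in the intestine were led by miR-2535b-3p, the best measured of the late-numbered arms. It had 168, 96 and 61 reads in the intestine libraries, or 307, 261 and 185 CPM, against 202 and 361 reads in the carcass libraries, or 122 and 119 CPM. All 3 intestine libraries lay above both carcass libraries. The log2 fold change of miR-2535b-3p was 1.59 (SE 0.26, edgeR adjusted p = 1.09e-06). The hairpin mir-2535b (FBgn0263559) lies on the minus strand of chromosome X at 21298275 to 21298345 in BDGP6.54, with the 3p arm at 21298279 to 21298300. It sits in an intron of Abca3, a gene of the ABC transporter family, on the same strand. The same intronic host holds mir-1007, with 1825 bases between the hairpins. The summed arms of mir-1007 had 265, 326 and 219 CPM in the intestine, against 42.3 and 36.9 CPM in the carcass. As a percentage of the carcass mean, the intestine mean was thus 208% for mir-2535b and 681% for mir-1007, and whether these ratios differ was not tested.

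miR-4919-3p had 20, 10 and 10 reads in the intestine, or 36.5, 27.1 and 30.4 CPM, against 4 and 20 reads in the carcass, or 2.42 and 6.58 CPM. The tissues did not overlap, with a log2 fold change of 3.17 (SE 0.60, edgeR adjusted p = 1.21e-05). Without carcass 2 the log2 fold change of miR-4919-3p was 4.16. The hairpin (FBgn0263576) occupies 15945887 to 15945946 on the plus strand of chromosome 2R, in an intron of Cyp4aa1, a cytochrome P450 gene. Its other arm, miR-4919-5p, had 6, 1 and 3 intestine reads against 5 and 1 carcass reads, too few for the filter. The 5p arm held 20.0% of the 50 intestine reads of the hairpin (95% Wilson interval 11.2 to 33.0%). Its share of the 30 carcass reads was also 20.0% (9.51 to 37.3%). The carcass libraries differed from each other in this balance, with 5 reads of the 5p arm beside 4 of the 3p arm in carcass 1, and 1 beside 20 in carcass 2.

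miR-11182-3p had 17, 13 and 14 reads in the intestine, or 31.0, 35.3 and 42.5 CPM, against 27 and 49 reads in the carcass, or 16.3 and 16.1 CPM. Every intestine library lay above the nearly equal carcass libraries. This gave a log2 fold change of 1.65 (SE 0.43, edgeR adjusted p = 0.000811). The hairpin (FBgn0286005) lies on the minus strand of chromosome 2R at 18180151 to 18180205 and overlaps an untranslated exon of CG5726 on the same strand.

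miR-4951-5p was the exception among the called arms, because its call depended on the scaling. It had 44, 35 and 24 intestine reads, or 80.3, 95.02 and 72.9 CPM, against 93 and 265 carcass reads, or 56.2 and 87.2 CPM. On library totals the tissues overlapped. With TMM factors it differed by 0.70 on the log2 scale (SE 0.28, edgeR adjusted p = 0.0215). The difference was 0.35 with RLE factors (adjusted p = 0.237), 0.19 with library totals (adjusted p = 0.547) and 0.36 with DESeq2 (adjusted p = 0.314). The call was also lost when any 1 intestine library or carcass 1 was left out (edgeR adjusted p 0.107 to 0.236). The hairpin (FBgn0263537, chromosome 3R, plus strand, 21316716 to 21316865) lies within an exon of lncRNA:Hsromega, the long non-coding RNA of the heat shock locus that is known for nuclear speckles and stress. Most reads came from the 5p arm in both tissues, 90.4% of 114 in the intestine (95% Wilson interval 83.5 to 94.5%) and 94.2% of 380 in the carcass (91.4 to 96.1%).

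miR-4977-3p, an arm below the filter, was the fifth most read late-numbered arm of the intestine. It had 7, 3 and 2 intestine reads, or 12.8, 8.14 and 6.07 CPM, against 2 and 5 carcass reads, or 1.21 and 1.65 CPM. The tissues did not overlap. On pooled reads it was 6.46-fold higher in the intestine, with a 95% counting interval of 2.34 to 19.4 that leaves out the spread between libraries. The hairpin (FBgn0263529, chromosome 2R, minus strand, 7406733 to 7406837) overlaps an untranslated exon of Eaf, a cofactor of transcription elongation.

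Among the tested arms, those lower in the intestine came from a hairpin that overlaps a coding exon and from an X-linked cluster. miR-2494-3p was the most read late-numbered arm of the carcass. It had 0 reads in each of the 3 intestine libraries, against 193 and 374 reads in the carcass, or 117 and 123 CPM. At the carcass level 150 reads would have been expected in the pooled intestine libraries. The intestine level of miR-2494-3p on library totals was at least 50.2-fold lower, a bound set by 3 reads over the 3 libraries (edgeR adjusted p = 1.55e-11). The other arm, miR-2494-5p, had no intestine read and 17 and 37 carcass reads, and was at least 4.78-fold lower. Of the 621 carcass reads of the hairpin, 8.70% came from the 5p arm (95% Wilson interval 6.73 to 11.2%). The hairpin (FBgn0262233) occupies 16618766 to 16618882 on the plus strand of chromosome 3R. Its 3p arm, at 16618836 to 16618859, lies in a coding exon of CG17560, while the 5p arm, at 16618788 to 16618808, lies in no annotated exon on that strand. Whether its reads are fragments of the host transcript was not tested.

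The hairpins mir-9369, mir-2499, mir-4966-1 and mir-4966-2 lie among mir-972 to mir-979, an X-linked cluster known for expression in the testis. In order along the plus strand, mir-9369 follows mir-972 after 75 bases, and mir-2499 and both mir-4966 copies lie between mir-974 and mir-975. The annotation places no other transcript at these 4 hairpins. Their 8 arms summed to 3.65, 2.71 and 0 CPM in the intestine, against 145 and 133 CPM in the carcass, from 3 intestine and 644 carcass reads. The pooled level was 57.0-fold lower in the intestine (95% counting interval 19.4 to 277). The 16 arms of mir-972 to mir-979 summed to 12.8, 5.43 and 15.2 CPM in the intestine, against 1006 and 942 CPM in the carcass. The intestine mean was 1.53% of the carcass mean for the late-numbered hairpins and 1.14% for their neighbours. The testis markers above, which include the neighbours, had a mean intestine level of 1.31% of the carcass. Their part in the result was not tested.

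**Figure D4:**
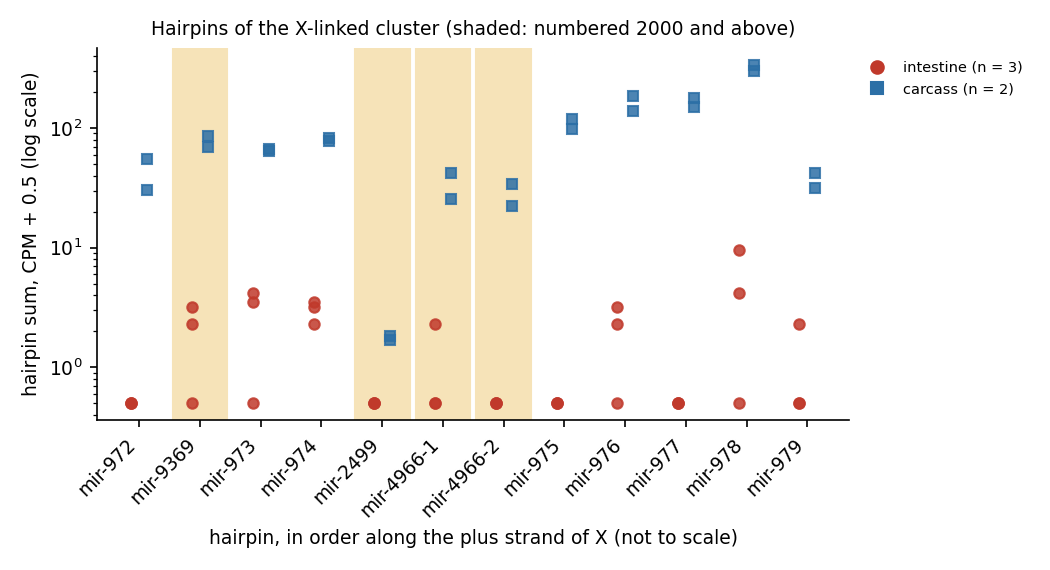
Summed level of each hairpin of the X-linked cluster in each library (CPM plus 0.5, log axis; circles, intestine; squares, carcass), in genomic order and not to scale, with the 4 late-numbered hairpins shaded. mir-9369 reaches 68.3 and 84.9 CPM in the carcass, above the adjacent mir-972 at 54.4 and 29.6 CPM and near mir-973 and mir-974, while mir-2499 stays at 1.21 and 1.32 CPM.

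Within the cluster, miR-9369-5p (FBgn0283639, chromosome X, 19551318 to 19551340) had 1, 0 and 0 intestine reads, against 89 and 201 carcass reads, or 53.8 and 66.1 CPM. It was 77.0-fold lower in the intestine on pooled reads (95% counting interval 13.7 to 3050.5; edgeR adjusted p = 9.03e-08). miR-9369-3p had 0, 1 and 0 intestine reads, against 24 and 57 carcass reads, and was 21.5-fold lower (3.75 to 859). The 5p arm held 78.2% of the 371 carcass reads of the hairpin (95% Wilson interval 73.7 to 82.1%).

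miR-4966-1-5p (FBgn0263514, chromosome X, 19558402 to 19558423) had 1, 0 and 0 intestine reads, against 49 and 59 carcass reads, or 29.6 and 19.4 CPM. It was 28.7-fold lower in the intestine (95% counting interval 5.04 to 1142.5; edgeR adjusted p = 0.000876). miR-4966-2-5p (FBgn0286004), from the second copy, had no intestine read and 39 and 48 carcass reads, and was at least 7.70-fold lower. The 5p arm held similar shares of carcass reads in the copies, 74.5% of 145 in mir-4966-1 and 71.3% of 122 in mir-4966-2, with Wilson intervals that overlap (66.8 to 80.9% and 62.7 to 78.6%). The copies may share reads, and the treatment of reads with several matches is not given in the sources used here, so the split between them is uncertain. mir-2499 had no intestine read and 2 and 4 carcass reads.

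miR-4969-5p, below the filter, had 0, 1 and 3 intestine reads, against 25 and 64 carcass reads, or 15.1 and 21.1 CPM. The tissues did not overlap, and the arm was 5.91-fold lower in the intestine on pooled reads (95% counting interval 2.23 to 22.1). With every arm with a read in the test, the log2 fold change of miR-4969-5p was -2.36 (edgeR adjusted p = 0.00178). The fits with a library left out applied the low-count filter again, and miR-4969-5p passed it only through the carcass, where it is high. The adjusted p-values from those fits carry that selection. Without intestine 3, which holds 3 of the 4 reads, the log2 fold change was -3.72 (edgeR adjusted p = 0.00212). It was -1.99 without intestine 2 (edgeR adjusted p = 0.0321), and -1.38 and not called without intestine 1 (edgeR adjusted p = 0.0711). Filter and scaling changed as well, so these shifts of miR-4969-5p cannot be credited to the left-out library alone. Its hairpin (FBgn0263521, chromosome 3R, minus strand, 21798514 to 21798671) lies in an intron of CASK, a synaptic scaffold gene, 182 bases from mir-999. As a percentage of the carcass mean, the intestine mean was 24.7% for mir-4969 and 22.9% for mir-999. The first rests on 5 intestine reads, whereas mir-999 was far more abundant at 410 to 433 CPM in the intestine and 1617 to 2072 CPM in the carcass. In mir-4969 the 5p arm held 98.9% of 90 carcass reads (95% Wilson interval 94.0 to 99.8%).

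In all, 17 arms with at least 20 reads in sum did not pass the filter. The carcass pool held 3.77 times the reads of the intestine pool, so a read sum of this kind leans towards arms of the carcass, and no tally of directions is given. The arms added here were named after their values were seen. miR-4976-5p, from a hairpin that lies only opposite a transcript, had 2, 0 and 0 intestine reads, against 18 and 37 in the carcass. Strand was not stated, so reads of that transcript cannot be told apart. With every arm with a read in the test, the log2 fold change of miR-4976-5p was -2.68 (edgeR adjusted p = 0.00745). With the low-count filter applied again, it was not called without intestine 2 (-1.92, edgeR adjusted p = 0.0976) or intestine 3 (-2.12, adjusted p = 0.0778). It was called without intestine 1, which holds both intestine reads (-6.95). In these fits miR-4976-5p passed the filter only through the carcass, where it is high, so their adjusted p-values carry that selection. With no intestine read left, the call without intestine 1 was fixed by the filter. miR-4952-5p, from a hairpin that overlaps a coding exon of the neurexin gene Nrx-1, a synaptic adhesion protein, had 0, 0 and 1 intestine reads, against 9 and 24 in the carcass. miR-4945-5p, in an intron of sals, a gene of muscle thin filaments, had no intestine read and 12 and 19 in the carcass. miR-2279-5p, in an intron of MFS17 and likewise chosen after its values were seen, had 2, 2 and 2 intestine reads, against 11 and 10 carcass reads, or 4.82 CPM in the pooled intestine and 4.47 CPM in the pooled carcass. Under 20 reads in sum there were arms with the higher level in the intestine. miR-4909-3p, in an intron of CG1941, had 5, 2 and 2 intestine reads, against 4 and 1 in the carcass, and was 6.78-fold higher in the intestine on pooled reads (95% counting interval 2.04 to 25.8). When every arm with a read entered the test, 18 of 121 late-numbered arms were called, against 50.7% of all 406 arms. Of these 121 arms, 53 had only 1 to 3 reads over all libraries and could hardly be called. The lower share thus does not show that late-numbered arms differ less between the tissues.

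The annotation gave the genomic context of each hairpin. Of the 106 hairpins, 49 lay in same-strand introns of protein-coding genes, 18 overlapped coding exons and 14 untranslated exons. Another 5 lay in non-coding transcripts, 9 only opposite a transcript and 11 at no other transcript. Same-strand exons of protein-coding genes were thus met by 30.2% of late-numbered hairpins, against 2.99% of 67 mid-numbered hairpins and 4.88% of 82 others. Summed over each class, the arms of hairpins that overlap coding exons had 25.7 CPM in the pooled intestine and 164 CPM in the pooled carcass, and mir-2494 was the main part of the carcass sum. Those in introns had 348 CPM in the intestine and 202 CPM in the carcass, of which miR-2535b-3p was the main part in both. A read was found for 24 of 32 arms of hairpins that overlap coding exons, 18 of 26 of those at untranslated exons, 49 of 78 of those in introns and 17 of 21 of those at no transcript. Detection in an exon class does not separate a microRNA from host fragments, and this was not tested.

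**Figure D5:**
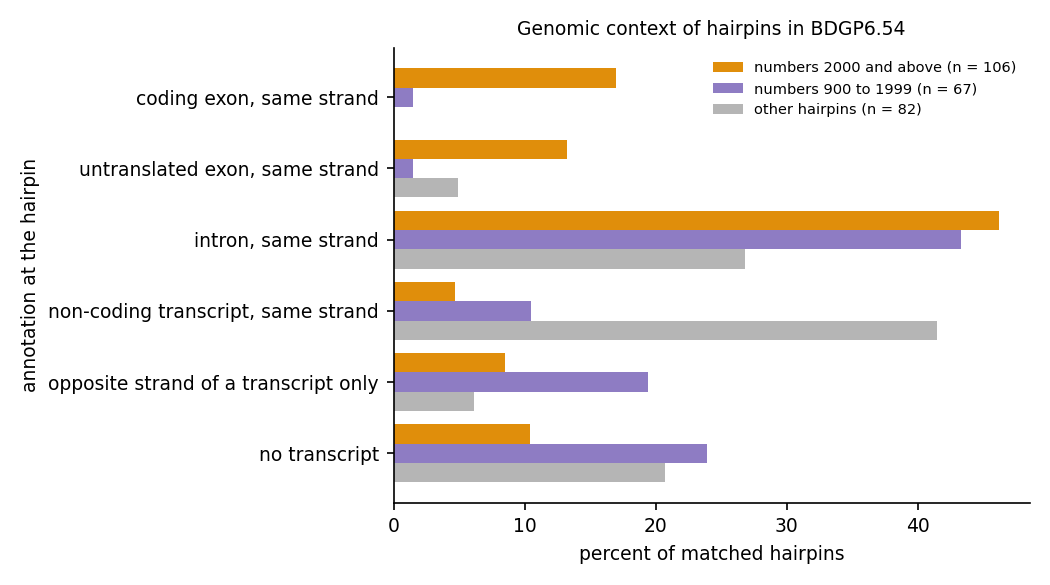
Bars give the percent of hairpins in each genomic context for 106 late-numbered hairpins, 67 mid-numbered hairpins and 82 others that matched the annotation. Hairpins that overlap coding exons are 17.0% of the late-numbered ones, against 1.49% and 0%.

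By number, the 34 arms below 3000 summed to 279 CPM in the pooled intestine and 271 CPM in the pooled carcass, mostly from miR-2535b-3p in the intestine and from miR-2535b-3p and mir-2494 in the carcass. The 98 arms from 4000 to below 5000 summed to 208 and 260 CPM, and 70.4% of them had a read. The 41 arms from 5000 upwards summed to 54.6 CPM in the intestine and 118 CPM in the carcass, mostly from miR-11182-3p in the intestine and mir-9369 in the carcass. The 10 arms from 3000 to below 4000 summed to only 3.21 and 4.47 CPM, and none of them reached 20 reads. No read was listed for 26 of the 106 hairpins, among them both copies of mir-10404, which lie within pre-ribosomal RNA transcripts on the rDNA contig. Since the copies are near-identical and the treatment of reads with several matches is not given, the 0 does not show that they were silent.

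Both arms were detected for 41 of the 77 hairpins with 2 counted arms. Among hairpins with at least 20 carcass reads, the 5p arm held all 55 reads of mir-4976 and all 21 of mir-2279, whereas it held 44.1% of 34 reads of mir-4958 and 46.2% of 26 reads of mir-4961. These 4 hairpins were picked for their arm shares.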

How the data were processed

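The submitters' processing notes name cutadapt 1.9.1 and Bowtie2 2.3.2, and also featureCounts and Subread 2.0.0. They give no genome build, strand setting or rule for reads that match several places. The deposited values were raw read counts per mature microRNA arm, with 1 column per library. Groups and replicate numbers came from sample titles, and nothing in the labels names separate animals, so p-values measure the spread between libraries, which may be technical. No pair of libraries agreed within sampling noise (lowest chi-square over degrees of freedom 10.9, intestine 2 and 3).

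Rows were matched by name to the BDGP6.54 annotation (183 of 183 members, 473 of 479 rows). Coordinates are from that build, which could not be compared with that of the authors. Arms were assigned as 5p or 3p by their place in the hairpin. Strand was not stated, so reads of overlapping opposite transcripts cannot be told apart.

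The test used edgeR 4.0.16 in R 4.3.3 (filterByExpr, minimum count 10 and minimum total 15, which kept 222 arms; TMM factors; quasi-likelihood test of intestine against carcass without a replicate block; Benjamini-Hochberg over 222 arms, threshold 0.05). The SE of a log2 fold change is its size divided by the root of the F statistic. Levels are CPM on library totals unless TMM is named. Folds over pooled reads have exact 95% counting intervals, and bounds rest on 3 reads. Alternatives were other scalings and filters, DESeq2 1.42.0, thinning, a replicate block and leaving out each library. Arms named are those tested, the 10 most read, and the 5 most read of each tissue, unless said otherwise. The members and lists were chosen with earlier results of these data known.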

Additional observations from a re-analysis of the deposited data

How the results depend on the processing

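All alternatives were planned. miR-2535b-3p, miR-11182-3p and miR-4919-3p kept their direction and call in each of the 13, 13 and 12 alternatives that tested them, with log2 fold changes of 1.07 to 1.74, 1.13 to 1.98 and 2.66 to 4.16. However, miR-11182-3p and miR-4919-3p passed the main filter through the intestine alone, so their kept calls say little about stability. After thinning, miR-4919-3p did not pass the filter at all. The fitted values of miR-2494-3p, miR-9369-5p and miR-4966-1-5p ran from -10.36 to -7.89, -9.32 to -5.15 and -8.00 to -3.93. With at most 1 intestine read, their calls were fixed by passing through the carcass and show nothing about stability. miR-4951-5p kept its direction but lost its call in 11 of 13 (log2 fold change 0.19 to 1.10, adjusted p 0.00381 to 0.547). With library totals 50 of all arms were higher, against 77 with TMM, which is 28.4% against 41.8% of the calls. Among late-numbered arms, thinning to the smallest total left 2 of 5 tested arms higher, against 56 of all 202 tested. Without the low-count filter 12 of 121 were lower, against 145 of all 406, though 53 of the 121 had only 1 to 3 reads. Without an intestine library 7 of 12 to 14 were lower and 3 to 4 higher, as the filter then tests other arms. Those newly called lower passed it only through the carcass, where they are high. Over all arms 121 to 126 of 241 to 246 were then lower, and 64 to 68 higher. With a single carcass library left, it was assumed to vary like the intestine libraries. The replicate block called 4 higher and 3 lower, against 73 and 107 of all 222 arms. Labels do not pair replicate numbers, and deviations of same-numbered libraries correlated at 0.026 and 0.021. Without the most abundant late-numbered arm, their pool share was 281 CPM in the intestine, against 533 CPM in the carcass. With miR-958-3p left out of the totals it was 659 CPM in the intestine. Leaving out a library gave 494 to 570 CPM in the intestine, against 652 to 656 CPM in the carcass. Arms with at least 1 read in the carcass libraries numbered 94 and 95 as deposited and 48.4 and 40.1 after thinning. Without thinning, arms with at least 3 reads numbered 12, 6 and 7 in the intestine, against 48 and 54 in the carcass. Of the 183 arms, 176 passed the filter through neither tissue.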
